A study of Mus musculus with 16 samples.

Results

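The circadian clock genes were read in the tibialis anterior, the muscle along the shin. They comprised 10 of the 29730 genes in the count table: Arntl (also called Bmal1), Clock, Npas2, Per1, Per2, Per3, Cry1, Cry2, Dbp and Nr1d1. They were chosen by name as the best known genes of the clock loop, their Ensembl identifiers were matched through the GENCODE annotation of GRCm38, and all 10 passed the filter on low counts. The muscles came from 16 male C57BL/6N mice aged 7 weeks, with 4 mice in each of 4 groups. WT_PBS were wild-type mice given phosphate-buffered saline (PBS), and WT_ASO were wild-type mice injected with the antisense oligonucleotide ASO1, a short synthetic strand made to lower the RNA of Dnm2. KO_PBS were Bin1mck-/- mice given PBS, and KO_ASO were Bin1mck-/- mice given ASO1. The Bin1mck-/- line serves as a mouse model of recessive centronuclear myopathy. The name of the line carries mck, the usual symbol of muscle creatine kinase, but the driver of the deletion, the deleted exons, the dose and schedule of ASO1, the number of litters and the hour at which muscles were taken are not stated in the sources used here. The questions were whether the clock genes differed among the 4 groups, and whether mice with the same replicate number, 1 to 4, shared a setting of the clock, as they would if the number marked an hour of sampling.

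The circadian clock is a loop of transcription that runs in nearly every cell. Arntl pairs with Clock, or with its relative Npas2, and the pair binds E-box motifs and switches on the Per and Cry genes, whose proteins then repress the pair. Around this loop, Nr1d1 represses Arntl through elements that it shares with the ROR receptors, and Dbp, an output of the loop, acts on D-box motifs. In muscle, as in other tissues of animals on a light cycle, Arntl and Npas2 peak at about the time when Dbp and the Per genes are low. A single muscle taken at one hour shows one phase of that cycle, so the level of a clock gene carries the hour of sampling as well as the state of the tissue.

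The motifs through which the loop acts are shown in 4 clock genes and in Ciart, a further gene of the loop, which were chosen because their windows held a match, as the 250 bases before the start site from RefSeq (GRCm38.p6), 5′ to 3′, with the matched motif in capitals. For Arntl the 30 bases around a match just after the start site are shown.
Per1 (chr11:69098699-69098948, plus strand), E-box: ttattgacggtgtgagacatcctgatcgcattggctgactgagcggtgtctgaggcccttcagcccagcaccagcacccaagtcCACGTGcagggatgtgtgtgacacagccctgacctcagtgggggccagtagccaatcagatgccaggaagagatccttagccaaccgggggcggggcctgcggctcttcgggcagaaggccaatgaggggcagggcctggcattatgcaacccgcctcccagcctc
Cry1 (chr10:85185055-85185304, minus strand), E-box: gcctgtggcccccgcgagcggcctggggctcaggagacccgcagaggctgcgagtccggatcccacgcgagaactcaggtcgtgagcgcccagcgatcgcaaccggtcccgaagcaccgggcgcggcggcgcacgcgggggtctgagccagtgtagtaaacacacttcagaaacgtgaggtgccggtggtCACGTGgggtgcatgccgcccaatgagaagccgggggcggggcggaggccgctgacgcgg
Ciart (chr3:95882229-95882478, minus strand), E-boxes: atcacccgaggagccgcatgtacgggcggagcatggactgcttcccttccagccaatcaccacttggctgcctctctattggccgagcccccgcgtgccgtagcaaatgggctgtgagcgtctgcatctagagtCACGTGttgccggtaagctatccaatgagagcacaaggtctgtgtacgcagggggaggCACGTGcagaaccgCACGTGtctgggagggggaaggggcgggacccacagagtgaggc
Per3 (chr4:151044666-151044915, minus strand), D-boxes: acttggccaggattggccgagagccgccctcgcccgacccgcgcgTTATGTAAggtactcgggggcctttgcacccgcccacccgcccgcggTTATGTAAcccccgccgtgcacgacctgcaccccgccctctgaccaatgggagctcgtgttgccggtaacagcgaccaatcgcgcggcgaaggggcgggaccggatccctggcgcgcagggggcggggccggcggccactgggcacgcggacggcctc
Arntl (chr7:113207530-113207559, plus strand), ROR half-site: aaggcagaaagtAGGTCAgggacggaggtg
Of the 10 genes, 9 had a RefSeq window, which spans 250 bases before to 50 after a start site, and Per2 had none. Of these 9 genes, 2 held an E-box in a window (Per1 and Cry1), 1 a D-box (Per3) and 3 a half-site (Arntl, Clock and Per1), and the windows of Npas2, Cry2, Dbp and Nr1d1 held none of the 3 motifs. Some genes had several start sites, so these 9 genes had 13 windows, of which 2, 1 and 3 held the E-box, the D-box and the half-site. The E-box was searched as CACGTG, the D-box as TTANGTAA and the ROR half-site as AGGTCA, each on both strands. Among 32851 such windows of mouse genes, 7.15% held the E-box, 2.32% the D-box and 16.3% the half-site. At least a pair of E-boxes, as in Ciart, occurred in 0.594% of windows, and at least a pair of D-boxes, as in Per3, in 0.0822%. The window of Per1 also held 1 half-site, which did not overlap its E-box. Matches of these letters are a description of the windows and not evidence of binding.

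Total counts ran from 27591900 to 40862854 per sample. The markers of muscle fibres (Acta1, Ckm, Myh4, Ttn and Des) summed to between 82041 and 163780 counts per 1e6 counts (CPM) in every sample, and Ucp1, the defining gene of brown fat, did not exceed 0.0697 CPM. Bin1 and Dnm2 followed the labels of genotype and treatment: Bin1 measured 463 to 620 CPM in the 8 wild-type samples and 31.7 to 47.7 CPM in the 8 Bin1mck-/- samples, and Dnm2 measured 50.2 to 67.7 CPM with PBS and 20.7 to 31.1 CPM with ASO1. One library, KO_ASO replicate 4, correlated less with its own group (mean r 0.975) than the other 15, which lay between 0.980 and 0.986, and it had the highest sum of red blood cell markers, 331 CPM against 18.4 to 203 CPM elsewhere. CPM values here are scaled by TMM (trimmed mean of M values), and differentially expressed genes (DEGs) are those with an edgeR adjusted p under 0.05 over the 14960 genes tested.

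Compared per exonic length, as CPM per kilobase of exon (RPKM), Nr1d1 had the highest mean level of the 10 genes, 48.8 ± 14.2 RPKM (SD, n = 16 samples), and Npas2 the lowest, 0.195 ± 0.1399 RPKM (SD, n = 16). Between them lay Dbp at 24.9 ± 11.8, Per1 at 22.6 ± 6.94, Cry2 at 7.56 ± 1.94, Per3 at 3.79 ± 1.55, Cry1 at 3.61 ± 0.622, Per2 at 3.32 ± 1.99, Clock at 1.999 ± 0.421 and Arntl at 1.86 ± 0.911 RPKM (SD, n = 16). Neighbours in this order were often not separated: Nr1d1 exceeded Dbp in 13 of 16 samples, Dbp exceeded Per1 in 8 of 16 samples, Per3 exceeded Cry1 in 8, Cry1 exceeded Per2 in 9, Per2 exceeded Clock in 9 and Clock exceeded Arntl in 9. Per1 stood above Cry2, Cry2 above Per3 and Arntl above Npas2 in all 16 samples. The exons of Dbp overlap those of Sphk2 on the opposite strand, and those of Nr1d1 overlap Thra, with mean counts of 537 and 2168 for the partner genes. The sources used here do not give the strand setting of the counting, so a part of the reads of Dbp and Nr1d1 may come from these partners.

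The activating arm of the loop was read first. Arntl (ENSMUSG00000055116, chromosome 7, 113207465 to 113314126, plus strand, GRCm38, protein coding) encodes the partner that Clock and Npas2 share. Arntl measured 24.9, 7.37, 6.64 and 6.47 CPM in WT_PBS replicates 1 to 4, 7.33, 5.99, 22.0 and 10.2 CPM in WT_ASO, 24.1, 14.1, 15.9 and 19.2 CPM in KO_PBS, and 7.09, 21.4, 16.9 and 14.4 CPM in KO_ASO. In WT_PBS, replicate 1 stood apart from 3 samples that lay together, in WT_ASO replicate 3 did, and in KO_ASO replicate 1 was the low one, whereas all 4 KO_PBS samples were above 14 CPM. The groups overlapped. Npas2, which can take the place of Clock, was the faintest of the genes, with 7 to 86 reads per sample. Npas2 measured 2.02, 0.261, 0.311 and 0.276 CPM in WT_PBS, 0.360, 0.231, 1.24 and 0.917 CPM in WT_ASO, 1.79, 0.793, 1.54 and 2.12 CPM in KO_PBS, and 0.272, 1.44, 0.831 and 0.557 CPM in KO_ASO. The mice with high Npas2 were largely those with high Arntl. Clock, the DNA-binding partner of Arntl, was steadier, at 32.4, 25.8, 17.5 and 23.7 CPM in WT_PBS, 21.6, 25.4, 23.8 and 26.6 CPM in WT_ASO, 33.6, 28.4, 25.6 and 31.9 CPM in KO_PBS, and 24.3, 38.8, 36.8 and 23.0 CPM in KO_ASO. Its groups overlapped throughout.

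**Figure D1:**
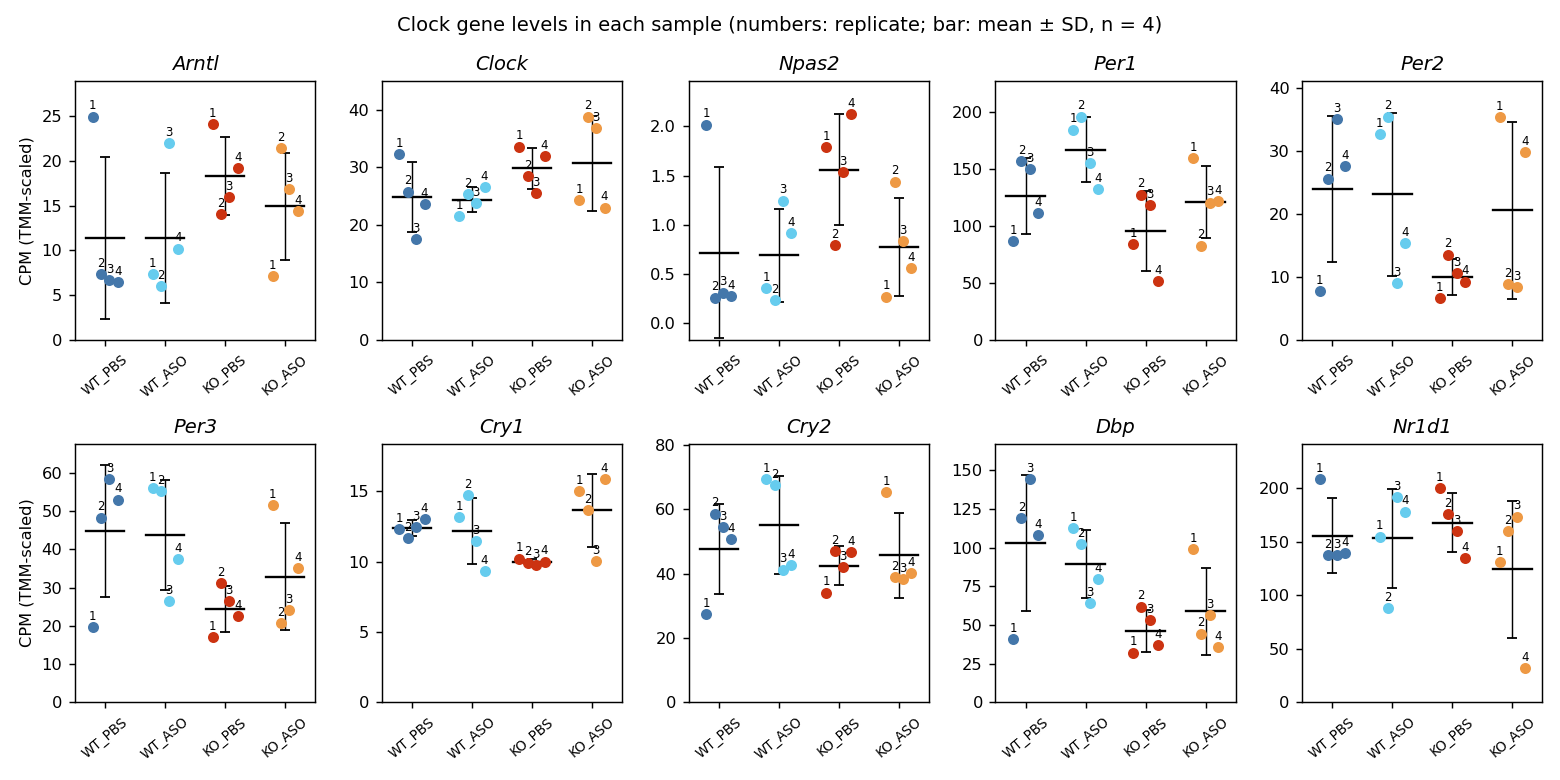
Level of each of the 10 clock genes (CPM, TMM-scaled, linear axis) in every sample, with the replicate number beside each point and the mean ± SD of the 4 samples of a group as bars. WT_PBS replicate 1 is the highest of its group for Arntl (24.9 CPM), Npas2 (2.02 CPM) and Nr1d1 (208 CPM) and the lowest for Dbp (40.7 CPM) and Per3 (19.6 CPM).

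The Per genes encode the repressors that bind the Cry proteins. Per1 (ENSMUSG00000020893, chromosome 11, 69095217 to 69109960, plus strand), which carries the E-box shown, measured 86.3, 157, 149.8 and 111 CPM in WT_PBS, 184, 196, 155 and 132 CPM in WT_ASO, 84.1, 127, 118 and 51.2 CPM in KO_PBS, and 159.7, 82.6, 120.3 and 122 CPM in KO_ASO. WT_ASO held the highest pair of samples and KO_PBS the lowest one. Per2 measured 7.69, 25.6, 35.1 and 27.6 CPM in WT_PBS, 32.8, 35.5, 8.99 and 15.4 CPM in WT_ASO, 6.56, 13.5, 10.6 and 9.25 CPM in KO_PBS, and 35.4, 8.82, 8.34 and 29.8 CPM in KO_ASO. In KO_PBS all 4 samples were under 14 CPM, and each of the other groups held at least 1 sample under 10 CPM and a pair or more above 15 CPM. Per3 (ENSMUSG00000028957, chromosome 4, 151003652 to 151044665, minus strand), with the pair of D-boxes shown, measured 19.6, 48.3, 58.2 and 53.0 CPM in WT_PBS, 55.9, 55.2, 26.4 and 37.4 CPM in WT_ASO, 17.1, 31.3, 26.4 and 22.5 CPM in KO_PBS, and 51.6, 20.7, 24.0 and 35.0 CPM in KO_ASO. The samples low in Per3 were those high in Arntl.

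The Cry genes encode the repressors proper of Arntl and Clock. Cry1 (ENSMUSG00000020038, chromosome 10, 85131700 to 85185064, minus strand) measured 12.3, 11.7, 12.5 and 13.0 CPM in WT_PBS, 13.2, 14.8, 11.4 and 9.34 CPM in WT_ASO, 10.2, 9.94, 9.78 and 10.01 CPM in KO_PBS, and 15.0, 13.7, 10.04 and 15.9 CPM in KO_ASO. Every KO_PBS sample lay below every WT_PBS sample, and the 4 KO_PBS values lay close together. Cry2 measured 27.4, 58.6, 54.4 and 50.7 CPM in WT_PBS, 69.2, 67.4, 41.2 and 42.7 CPM in WT_ASO, 34.1, 46.9, 42.1 and 46.8 CPM in KO_PBS, and 65.3, 38.8, 38.4 and 40.2 CPM in KO_ASO, with overlap between all groups.

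Dbp, a transcription factor of the PAR bZip family that is driven by Arntl and Clock, and Nr1d1, the receptor REV-ERB alpha, are outputs of the loop. Dbp (ENSMUSG00000059824, chromosome 7, 45705088 to 45710203, plus strand) measured 40.7, 119, 144 and 108 CPM in WT_PBS, 112, 102, 63.9 and 79.6 CPM in WT_ASO, 32.1, 61.8, 53.4 and 37.2 CPM in KO_PBS, and 99.2, 44.5, 56.6 and 35.9 CPM in KO_ASO. Of the WT_PBS samples, 3 lay above 100 CPM and replicate 1 lay within the range of KO_PBS. Nr1d1 (ENSMUSG00000020889, chromosome 11, 98767932 to 98775333, minus strand) measured 208, 138, 138 and 139 CPM in WT_PBS, 155, 87.9, 191 and 178 CPM in WT_ASO, 199.6, 176, 160.2 and 134 CPM in KO_PBS, and 131, 159.8, 173 and 31.9 CPM in KO_ASO. The value of KO_ASO replicate 4, the library that stood apart, was the lowest of the 16 samples.

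The first comparison asked how the clock genes differed between Bin1mck-/- and wild-type muscle under PBS. No clock gene was a DEG: 0 of 10 passed the edgeR test, against 12.6% of the 14960 genes tested, and at an unadjusted p under 0.05 there were 4 of 10, against 27.3% of genes. The median log2 fold change (log2FC) of the 10 genes was -0.24, beside -0.01 for all genes, with 4 genes above 0 and 6 below. In whole muscle, fewer cells of a type and less RNA per cell cannot be told apart. Dbp had the smallest p, with 46.1 ± 13.9 CPM in KO_PBS and 103 ± 44.2 CPM in WT_PBS (SD, n = 4 each) and a log2FC of -1.16 ± 0.37 (SE, 95% interval -1.96 to -0.36, edgeR adjusted p = 0.0567). Per3 gave -0.88 ± 0.35 (SE, adjusted p = 0.121 with edgeR), Per2 -1.27 ± 0.57 (adjusted p = 0.170) and Cry1 -0.31 ± 0.14 (adjusted p = 0.157). On the other side of the loop, Npas2 gave 1.12 ± 0.66 (SE, edgeR adjusted p = 0.295) and Arntl 0.69 ± 0.50 (adjusted p = 0.407). The intervals of Arntl, -0.38 to 1.76, and Nr1d1, -0.70 to 0.91, held 0 as well as differences of over 1.5-fold. Cry1 was the only 1 of the 10 genes whose KO_PBS and WT_PBS samples did not overlap, as in 20.4% of all genes, and its two-sided exact permutation p of 0.0286 is the smallest that 4 against 4 samples allow.

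A single mouse moved this count. Without WT_PBS replicate 1, 4 of the 10 genes were called by edgeR: Dbp with a log2FC of -1.42 (adjusted p = 0.0119), Npas2 with 2.44 (adjusted p = 0.0186), Per3 with -1.13 (adjusted p = 0.0330) and Arntl with 1.42 (adjusted p = 0.0471). Over all genes, 1878 of 14960 (12.6%) were called with all samples, and 997 to 2137 over the fits with 1 sample left out. Leaving out KO_ASO replicate 1 or 4, which belong to neither of the compared groups, gave a call for Dbp alone (edgeR adjusted p = 0.0348 and 0.0479). With DESeq2 on all samples, Dbp (adjusted p = 0.00865) and Per3 (adjusted p = 0.0491) were called, and with the PBS groups fitted alone Cry1 was called by edgeR (adjusted p = 0.0270). Markers of other cells moved with the genotype: all 5 macrophage markers were called higher in KO_PBS, with sums of 54.5 to 120 CPM against 17.1 to 33.9 CPM in WT_PBS, as were 2 of 4 fibroblast markers, with sums of 505 to 834 CPM against 413 to 517 CPM. The sum of the muscle fibre markers was lower, at 82041 to 100101 CPM in KO_PBS against 108320 to 142763 CPM in WT_PBS, without overlap. Of these 5 markers Des alone was called, and it was higher in KO_PBS (log2FC 0.75, edgeR adjusted p = 0.000118), and the other 4 had a log2FC below 0. The part of these cell markers in the values of the clock genes was not tested.

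**Figure D2:**
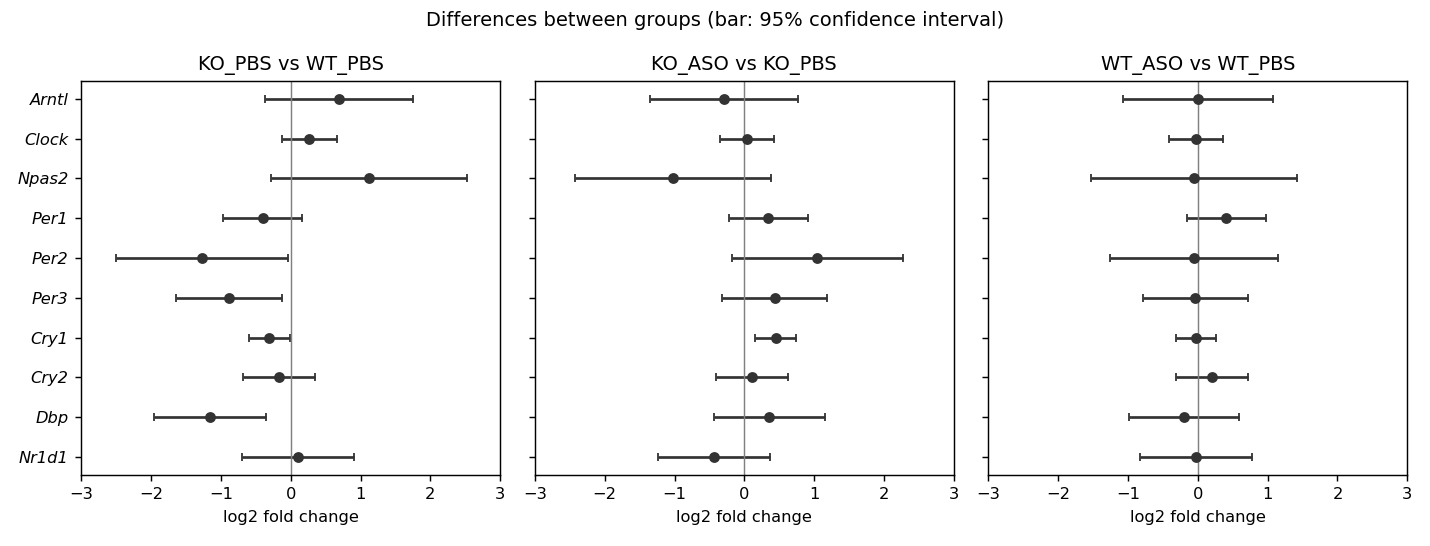
Log2 fold change of each clock gene in 3 comparisons, with its 95% confidence interval from the edgeR fit over all 16 samples. For KO_PBS against WT_PBS the intervals of Per2, Per3, Cry1 and Dbp lie below 0, and none of the 10 genes passed the adjusted test in any of these comparisons.

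The second comparison was KO_ASO against KO_PBS, the effect of ASO1 in Bin1mck-/- muscle, and it shares its KO_PBS samples with the first. None of the 10 clock genes was a DEG in edgeR, against 3.64% of genes tested, and 1 of 10, Cry1, had an unadjusted p under 0.05, against 17.7%. Cry1 measured 13.6 ± 2.57 CPM in KO_ASO and 9.99 ± 0.187 CPM in KO_PBS (SD, n = 4 each), with a log2FC of 0.45 ± 0.14 (SE, 95% interval 0.16 to 0.74, edgeR adjusted p = 0.0820). KO_ASO replicate 3, at 10.04 CPM, lay within the range of KO_PBS, and no clock gene separated the samples of these groups, as 10.4% of all genes did. Without it Cry1 was called (log2FC 0.57, edgeR adjusted p = 0.0313), and DESeq2 called it with all samples (adjusted p = 0.0382). Per2 gave 1.05 ± 0.57 (SE, edgeR adjusted p = 0.373), from 2 KO_ASO samples above 29 CPM and 2 under 9 CPM, and Npas2 gave -1.02 ± 0.66 (SE, adjusted p = 0.470). Nr1d1 gave -0.43 ± 0.38 (SE, edgeR adjusted p = 0.624), and -0.11 without KO_ASO replicate 4. Macrophage markers moved here too, with 3 of 5 called lower in KO_ASO and sums of 19.9 to 35.4 CPM against 54.5 to 120 CPM in KO_PBS. Of the 4 fibroblast markers, all with a log2FC below 0, Dcn was called lower (log2FC -0.68, edgeR adjusted p = 0.0390), with sums of 221 to 674 CPM against 505 to 834 CPM. Des was called lower too (log2FC -0.60, edgeR adjusted p = 0.00303), while the sums of the 5 fibre markers overlapped, at 98286 to 115114 CPM against 82041 to 100101 CPM. The part of these markers in the clock gene values was not tested.

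In wild-type muscle, WT_ASO against WT_PBS, again 0 of 10 clock genes were called, against 0.00668% of genes, which is a single gene, and 0 of 10 had an unadjusted p under 0.05, against 6.45%. Log2FC values lay between -0.20 for Dbp and 0.41 for Per1 (SE 0.27, 95% interval -0.16 to 0.97, edgeR adjusted p = 0.845), and the intervals of Arntl, -1.07 to 1.07, and Per2, -1.25 to 1.15, were wide. For KO_ASO against WT_ASO 0 of 10 were called, against 0.0735% of genes, and 0 of 10 had an unadjusted p under 0.05, against 15.1%, with the smallest edgeR p for Clock (log2FC 0.34 ± 0.18, SE, adjusted p = 0.404). Between KO_ASO and WT_PBS 0 of 10 were called, against 0.0401% of genes, and Dbp alone had an unadjusted p under 0.05 (log2FC -0.80 ± 0.37, SE, edgeR adjusted p = 0.601), against 8.22% of genes. The interaction of genotype and oligonucleotide gave 0 of 10, against 0.575% of genes, and 1 of 10 at an unadjusted p under 0.05, against 12.7%, with Cry1 at 0.48 ± 0.20 on the log2 scale (SE, edgeR adjusted p = 0.316). The test of any difference among the 4 groups gave 0 of 10, against 12.4% of genes, and 2 of 10 at an unadjusted p under 0.05, against 27.5%, with edgeR adjusted p from 0.127 for Dbp to 0.828 for Nr1d1. DESeq2 called 1 of 10 in that last test, Dbp (adjusted p = 0.0190), and 0 of 10 in the other comparisons of this paragraph, and limma-voom called 0 of 10 in every comparison. No clock gene separated the samples of its groups in WT_ASO against WT_PBS, KO_ASO against WT_ASO or KO_ASO against WT_PBS, where 3.22%, 6.97% and 5.39% of all genes did so.

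The clock genes varied widely between mice of one group. The SD of log2 CPM within groups, pooled over the 4 groups, had a median of 0.23 over all genes tested. It was 0.99 for Npas2, 0.90 for Per2, 0.73 for Arntl, 0.65 for Nr1d1, 0.59 for Dbp and 0.56 for Per3, and these values lie at percentiles 97.3, 99.5, 99.7, 98.9, 98.8 and 98.7 among genes of similar level. Per1 followed at 0.43, Cry2 at 0.39 and Clock at 0.29, at percentiles 96.5, 95.2 and 90.2. Cry1 had the smallest spread, 0.21, at percentile 67.4 among genes of its level, or 44.5 without KO_ASO replicate 3. The value of Nr1d1 rests on KO_ASO replicate 4, without which its SD was 0.34, at percentile 92.4 and below those of Per1 and Cry2. The SD of the other 9 genes moved by no more than 1.5 times with any 1 sample left out. From the lowest to the highest of the 16 samples, Npas2 spanned 9.16-fold, Per2 5.41-fold, Dbp 4.48-fold, Arntl 4.17-fold and Cry1 1.70-fold. Nr1d1 spanned 6.51-fold, and 2.37-fold without KO_ASO replicate 4. Within WT_PBS alone, Arntl had a coefficient of variation of 79.8%, which became 7.05% without replicate 1, and Cry1 had one of 4.58%, or 2.93% without replicate 2.

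**Figure D3:**
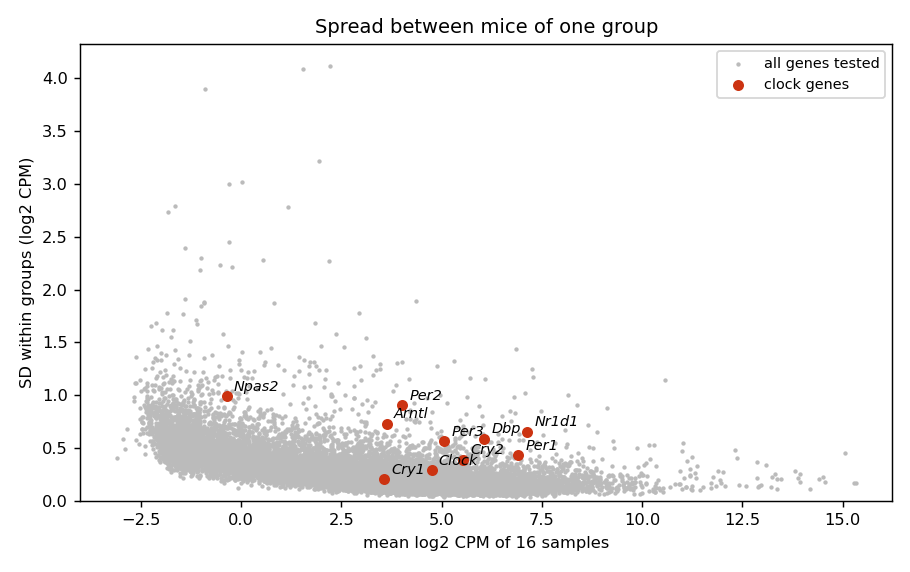
SD of log2 CPM between mice of one group, pooled over the 4 groups, against the mean log2 CPM of 16 samples, for all 14960 genes tested (grey) and the 10 clock genes (red). Npas2, Per2 and Arntl lie above most genes of their level, and Cry1 (SD 0.21) lies among them.

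Of 6 pairs of clock genes tested, 4 deviated from their group means together or in opposition. Over the 16 samples, with the group mean subtracted, Arntl and Npas2 correlated with Pearson's r of 0.94 (Spearman's rho 0.90, permutation p = 6e-05 for r and 0.00011 for rho, both adjusted over 6 pairs at most 0.00066). Arntl and Dbp were opposed, with r of -0.88 (rho -0.82, permutation p = 0.00087 and 0.00171, adjusted 0.00261 and 0.00342). Dbp and Per3 correlated at 0.87 (rho 0.85, permutation p = 0.00184 and 0.00072, adjusted 0.00368 and 0.00216), and Per1 and Per2 at 0.62 (rho 0.63, permutation p = 0.00677 and 0.0057, adjusted 0.0102 and 0.00855). Each of these 4 relations had the same sign within all 4 groups. Without the 2 samples farthest in the first gene they gave r of 0.91, -0.82, 0.92 and 0.70. The pairs with Nr1d1 did not pass the test: r was 0.35 with Arntl (rho 0.51, permutation p = 0.237 and 0.0592, adjusted 0.285 and 0.0710), 0.23 without the 2 farthest samples, and 0.02 with Dbp (rho -0.19, permutation p = 0.953 and 0.534, adjusted the same). Without KO_ASO replicate 4, these were 0.58 with Arntl and -0.36 with Dbp. The r with Arntl was above 0 within all 4 groups, from 0.08 in KO_ASO to 0.99 in WT_PBS.

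Described over all genes with the same 16 deviations, Npas2 was the gene most like Arntl among the 14959 others, and Per3 was the gene most opposed to it (r -0.97). Cry2 and Per2 (both r -0.91) followed close behind, at ranks 3 and 4 from that end. Among the 12112 genes with a mean of at least 1 CPM, those most like Arntl were Mras (r 0.91), Gtf2ird1 (0.89), Pfkp (0.89), Zbtb40 (0.88) and Fam110b (0.86), over 16 samples. Those most like Dbp were Ciart (r 0.95), a repressor of the loop with the 3 E-boxes shown, Cry2 (0.88), Per3 (0.87), Ankrd12 (0.81) and Stard3 (0.80). Per2 and Per3 had an r of 0.96 with each other. Clock leaned the way of Arntl (r 0.61) and against Per2 (r -0.78), and Cry1 had an r of 0.58 with Per2 and 0.09 with Dbp. These values rest on samples that share their library scaling and are given as a description.

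**Figure D4:**
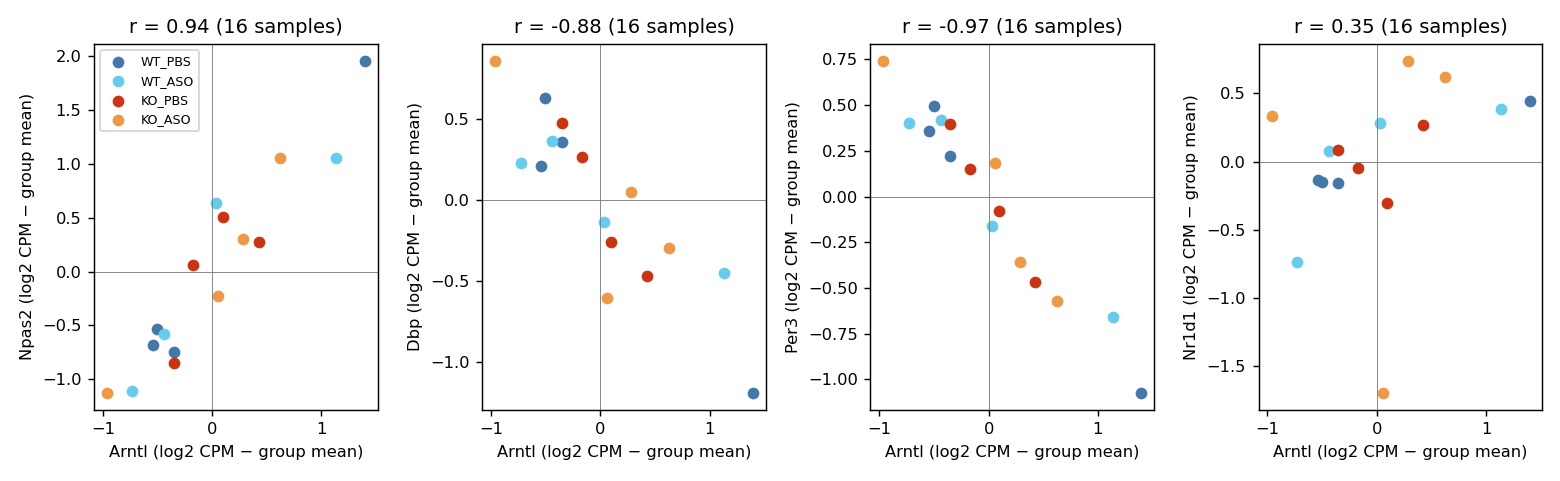
Deviations from the group mean (log2 CPM) of Npas2, Dbp, Per3 and Nr1d1 against those of Arntl in 16 samples, with Pearson's r above each panel. Npas2 rises with Arntl, Dbp and Per3 fall with it, and the relation of Nr1d1 (r 0.35) did not pass the test, with KO_ASO replicate 4 far below the rest.

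The log2 difference between Arntl and Dbp was used to order the mice, without the group means subtracted, so differences between groups enter the order. It was highest in KO_PBS replicate 1 (-0.41), WT_PBS replicate 1 (-0.71), KO_PBS replicate 4 (-0.95), KO_ASO replicate 2 (-1.05) and KO_ASO replicate 4 (-1.31). WT_ASO replicate 3 (-1.54), KO_ASO replicate 3 (-1.74), KO_PBS replicate 3 (-1.74) and KO_PBS replicate 2 (-2.13) followed. The lowest were WT_ASO replicate 4 (-2.96), KO_ASO replicate 1 (-3.80), WT_ASO replicate 1 (-3.93), WT_PBS replicate 2 (-4.00), WT_PBS replicate 4 (-4.05), WT_ASO replicate 2 (-4.08) and WT_PBS replicate 3 (-4.43). All 4 KO_PBS samples stood in the upper 9 of 16 and 3 of 4 WT_PBS samples among the lowest 4. KO_ASO stood at places 4, 5, 7 and 11 in this order, and WT_ASO at places 6, 10, 12 and 15. KO_ASO replicate 4, at place 5, deviated from its group mean by -0.61 for Dbp, 0.06 for Arntl and 0.83 for Per2 (log2 CPM).

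The replicate numbers were then tested as a possible mark of the hour of sampling. With the group means in the model, no clock gene passed the test by number: 0 of 10 passed the edgeR test of any difference among numbers 1 to 4, against 0.381% of genes, and 0 of 10 had an unadjusted p under 0.05, against 18.4%. Adjusted p ran from 0.582 for Per1 to 0.984 for Per3. The number took a median of 8.95% of the within-group variance of the 10 genes, where 25% would follow if numbers and mice were unrelated and the median over all genes was 34.2%. For Arntl the share was 5.92%, with replicate 1 at 24.9 and 24.1 CPM in the PBS groups and at 7.33 and 7.09 CPM in the ASO1 groups. Dbp mirrored this, at 40.7 and 32.1 CPM in replicate 1 of the PBS groups and at 112 and 99.2 CPM in replicate 1 of the ASO1 groups. The fit over all 4 groups looks for a shift that a number shares in every group. It cannot detect a setting that same-numbered mice share only within the PBS or only within the ASO1 groups. The 10 genes also varied together, so their shares are not independent of each other. The highest shares were those of Nr1d1, 27.2%, and Per1, 25.2%.

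**Figure D5:**
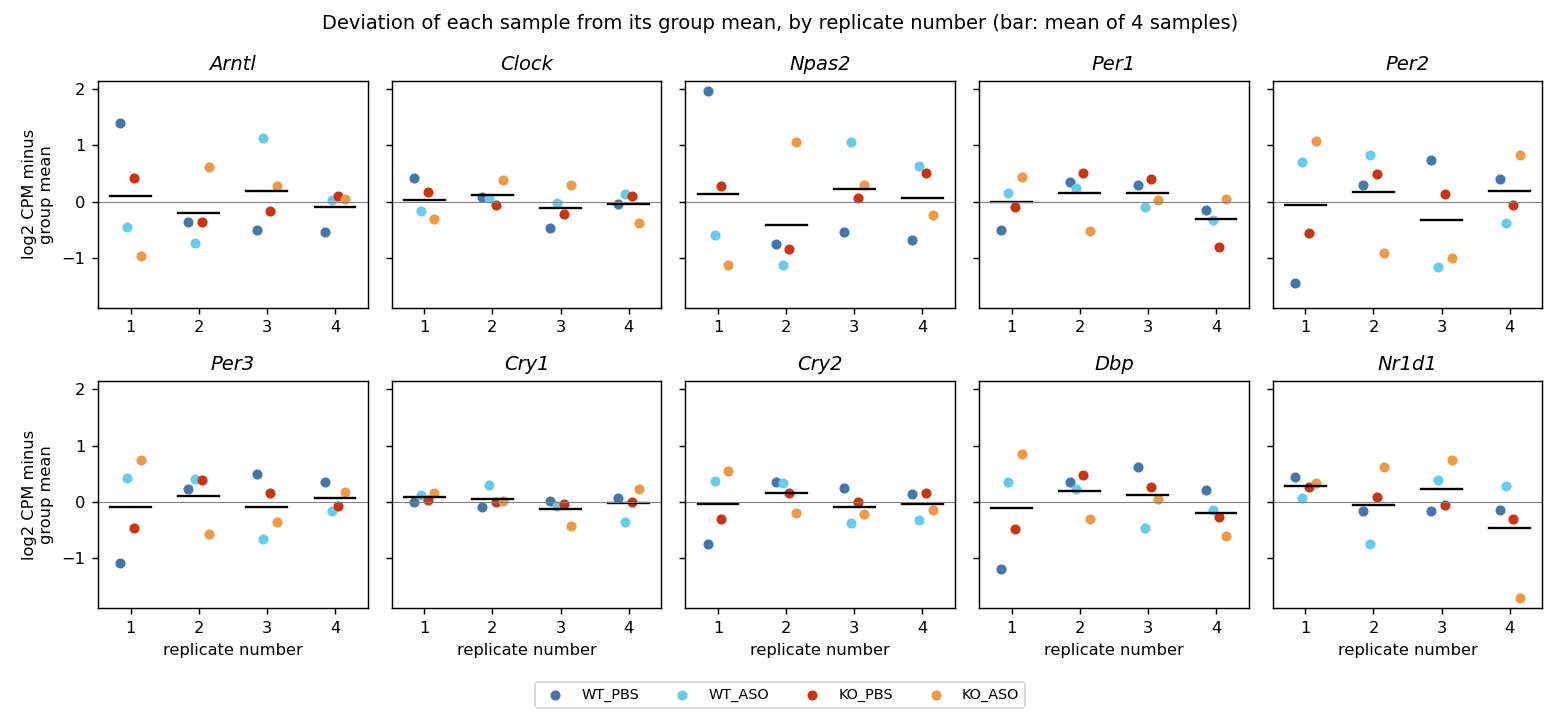
Deviation of each sample from its group mean (log2 CPM) by replicate number for the 10 clock genes, with the mean of the 4 samples of a number as a bar. For Arntl, replicate 1 lies above 0 in WT_PBS and KO_PBS and below 0 in WT_ASO and KO_ASO, and the means of the numbers differ by at most 0.39.

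Further genes of the clock were counted as a list of 19, of which 17 were tested, and Rorb and Fbxl21 were not. For KO_PBS against WT_PBS, 3 of 17 were called, against 12.6% of all genes. All 3 were lower in KO_PBS, a direction in which 5.12% of all genes were called, and 10 of 17 had an unadjusted p under 0.05, against 27.3%. All 17 had a log2FC below 0 (median -0.42, beside -0.01 for all genes). Hlf, a PAR bZip factor like Dbp, measured 8.57, 23.3, 14.9 and 18.9 CPM in WT_PBS and 2.18, 6.20, 3.95 and 4.49 CPM in KO_PBS, without overlap, and fell by 1.96 on the log2 scale (SE 0.42, edgeR adjusted p = 0.00741). Bhlhe40, Cipc and Csnk1e did not overlap between these groups either, and 20.4% of all genes did not. Bhlhe41, a repressor that competes for E-boxes, measured 33.9 to 77.3 CPM in WT_PBS and 21.6 to 34.0 CPM in KO_PBS (log2FC -1.05 ± 0.27, SE, edgeR adjusted p = 0.0219). Csnk1e, a kinase that marks Per proteins for decay, measured 48.4 to 61.8 CPM and 33.0 to 45.2 CPM (log2FC -0.42 ± 0.12, SE, edgeR adjusted p = 0.0306). Csnk1e was not called with library totals in place of TMM (log2FC -0.27, adjusted p = 0.129), under which the median of all genes moved from -0.01 to 0.14, and Bhlhe41 was not called without the filter (adjusted p = 0.0732), at a log2FC of -1.04 close to that with it. Csnk1e also lost its call without WT_PBS replicate 2, 3 or 4 or KO_PBS replicate 1 or 2 (log2FC -0.43 to -0.33), and Bhlhe41 without WT_PBS replicate 2 or 4 or KO_PBS replicate 1 (log2FC -0.94 to -0.90). Of the libraries, WT_PBS replicate 1 raised the count of this list to 6 when left out, and KO_PBS replicate 1, WT_PBS replicate 2 or WT_PBS replicate 4 lowered it to 1.

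In KO_ASO against KO_PBS 0 of 17 of these genes were called by edgeR, with the smallest p for Hlf (log2FC 1.40 ± 0.42, SE, adjusted p = 0.0805) and Cipc (0.27 ± 0.10, SE, adjusted p = 0.152). That compares with 3.64% of all genes called, and 3 of 17 had an unadjusted p under 0.05, against 17.7%, so the count of this list was at the share of all genes. DESeq2 called Hlf there (adjusted p = 0.00904). Hlf was at 18.8, 7.89, 7.30 and 10.2 CPM in KO_ASO, all above KO_PBS. Cipc and Csnk1e were higher without overlap too, and 10.4% of all genes separated these groups. In WT_ASO against WT_PBS 0 of 17 were called, with Fbxw11 (log2FC 0.11) and Bhlhe41 (-0.32) first by p, and 0 of 17 passed at an unadjusted p under 0.05, against 6.45% of all genes. For KO_ASO against WT_ASO 0 of 17 were called and 2, Csnk1d (-0.15) and Btrc (-0.18), had an unadjusted p under 0.05, against 15.1%. The interaction and the comparison of KO_ASO with WT_PBS each gave 0 of 17, with Hlf (1.58) and Bhlhe41 (0.84) first by p in the former and Btrc (-0.15) and Bhlhe41 (-0.53) in the latter, where unadjusted p under 0.05 counted 2 and 0, against 12.7% and 8.22% of all genes. The test of any difference among groups called 2 of 17, Hlf (edgeR adjusted p = 0.0261) and Csnk1e (adjusted p = 0.0353), close to the 12.4% of all genes called, and 7 of 17 had an unadjusted p under 0.05, against 27.5%. The test of replicate numbers in edgeR called 0 of 17, against 0.381% of genes, and 2 of 17 had an unadjusted p under 0.05, against 18.4%.

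Glucocorticoids, hormones that follow the day and act on many clock genes, were followed through 6 of their target genes (Fkbp5, Tsc22d3, Zbtb16, Klf9, Klf15 and Sgk1). In KO_PBS against WT_PBS 1 of 6 was called, close to the 12.6% of all genes: Sgk1, a kinase induced by these hormones, measured 237, 328, 249 and 295 CPM in WT_PBS and 158, 214, 205 and 142 CPM in KO_PBS, and fell by 0.62 on the log2 scale (SE 0.19, edgeR adjusted p = 0.0452). The call was lost with library totals (log2FC -0.47, adjusted p = 0.0833), without the filter (log2FC -0.62, adjusted p = 0.110) and without WT_PBS replicate 2, 3 or 4, WT_ASO replicate 1 or 3, KO_PBS replicate 1 or 4, or KO_ASO replicate 2 or 3 (log2FC -0.67 to -0.52, adjusted p up to 0.145). In KO_ASO against KO_PBS 0 of 6 were called, with Sgk1 (log2FC 0.71 ± 0.19, SE, edgeR adjusted p = 0.0536) and Tsc22d3 (0.47 ± 0.18, SE, adjusted p = 0.178) first, and 2 of 6 had an unadjusted p under 0.05, against 17.7% of genes. WT_ASO against WT_PBS gave 0 of 6, with Tsc22d3 (0.53) and Fkbp5 (0.94) at an unadjusted p under 0.05, against 6.45% of genes. KO_ASO against WT_ASO, KO_ASO against WT_PBS and the interaction gave 0 of 6 each, led by Klf15 (-0.68) and Tsc22d3 (-0.22), by Tsc22d3 (0.31) and Fkbp5 (0.60), and by Klf15 (-0.51) and Sgk1 (0.45), with 1, 0 and 0 of 6 at an unadjusted p under 0.05, against 15.1%, 8.22% and 12.7%. The test of any group difference called Sgk1 alone of the 6 (edgeR adjusted p = 0.0278), against 12.4% of genes, and 3 of 6 had an unadjusted p under 0.05, against 27.5%. Among replicate numbers 0 of 6 were called, with Zbtb16 (edgeR adjusted p = 0.125) and Sgk1 (adjusted p = 0.313) first, and 1 of 6 had an unadjusted p under 0.05, against 18.4%.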

How the data were processed

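Messenger RNA of 16 tibialis anterior samples was sequenced. TRI Reagent was used for extraction and a stranded TruSeq kit for the libraries, per the labels. The authors deposited raw counts per Ensembl gene, not normalized, with 1 column per sample. The build GRCm38 (mm10) and the tools HTSeq 0.6.1p1, STAR 2.5.3a, Bowtie2 2.2.8 and cutadapt 1.10 come from the submitters' processing notes. The sources used here give neither the role of each tool nor the annotation release or strand setting.

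All 29730 identifiers matched GENCODE. In R 4.3.3, edgeR 4.0.16 was run on all 16 samples with filterByExpr (14960 genes kept), TMM scaling, 1 mean per group and the robust quasi-likelihood test, with Benjamini-Hochberg adjustment over all genes of a comparison and a threshold of 0.05. An SE is the log2FC divided by the square root of F. Replicate numbers were tested as a factor beside the group means. Correlations used log2 CPM (prior count 2) minus the group mean and 100000 two-sided permutations within groups. Single genes were also tested by two-sided exact permutation. Alternatives were DESeq2 1.42.0, limma-voom 3.58.1 with quality weights, RLE factors, library totals, no filter, the compared groups alone, a replicate block and leaving out each sample. RPKM divides CPM by the union of annotated exons. Scripts were tested on simulated data. Nothing in the labels says that samples of a group came from separate litters or days, so p-values measure only the spread between these samples.

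The 10 genes and the lists of 19 further clock genes, 6 glucocorticoid targets and cell type markers were chosen with earlier results of these data known. Values were named by rule: all 10 clock genes, further list members where called or else the pair with the smallest p, and the 5 genes most like Arntl and Dbp. For the further clock genes, the pair with the smallest p in the test of replicate numbers is not reported here. Leaving out single samples from the correlations and from the measures of spread was added after seeing the data. No pair of libraries within a group agreed within sampling noise (lowest mean chi-square per gene 20.4).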

Additional observations from a re-analysis of the deposited data

Results flagged for a closer look

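Of 40 sets of 4 values (10 clock genes in 4 groups), 4 held a sample far from the other 3 by Dixon's criterion. Independent, normally distributed values give this in about 1 of 20 sets. The clock genes varied together, so the 40 sets are not independent and that rate is no measure for them. In WT_PBS, replicate 1 was far above the rest for Arntl (24.9 CPM against 6.47 to 7.37), Npas2 (2.02 CPM against 0.261 to 0.311) and Nr1d1 (208 CPM against 138 to 139). Arntl and Npas2 moved together across mice, so these values are not independent of each other. In KO_ASO, replicate 1 was far above the rest for Cry2 (65.3 CPM against 38.4 to 40.2).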

How the results depend on the processing

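The count of clock genes called in KO_PBS against WT_PBS, 0 with edgeR, was 2 with DESeq2, 1 with the compared groups alone and 0 to 4 when a sample was left out. The 19 further clock genes, with 3 called, gave 6 with limma-voom, 6 with the compared groups alone and 1 to 6 with a sample left out. All genes called there, 1878, ran from 997 (without KO_PBS replicate 1) to 2137. In KO_ASO against KO_PBS, DESeq2 called 1 clock gene and 1 further clock gene, and leaving out a sample gave 0 to 1 clock genes. The genes called there, 544, became 1056 with DESeq2, 1190 with limma-voom, 300 with the compared groups alone and 208 to 831 with a sample left out. For WT_ASO against WT_PBS the 1 gene called became 33 with DESeq2, 3 without the filter and 1 to 4 with a sample left out. For KO_ASO against WT_ASO the 11 became 422 with DESeq2, 2 with limma-voom, 6 with RLE factors, 2 with the compared groups alone and 2 to 19 with a sample left out. KO_ASO against WT_PBS (6 genes) gave 95 with DESeq2 and 4 to 11, and the interaction (86 genes) gave 385 and 23 to 102. Any group difference (1860 genes, 0 clock genes, 2 further clock genes) gave 3034, 1 and 4 with DESeq2, 1 further clock gene with library totals and 1 without the filter, and with a sample left out 864 to 2213 genes, 0 to 1 clock genes and 0 to 4 further clock genes. The test of replicate numbers (57 genes, 0 clock genes) gave 950 with DESeq2, 260 with limma-voom, 145 without the filter, 0 with the PBS groups alone and 0 (without KO_PBS replicate 3) to 178 (without KO_ASO replicate 3) with a sample left out. No alternative called a clock gene in that test. The cause of these shifts was not tested.

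The sign of the log2FC in KO_ASO against KO_PBS turned for Clock with library totals (-0.050) and without KO_PBS replicate 3 (-0.025), KO_ASO replicate 2 (-0.10) or KO_ASO replicate 3 (-0.059), with a range of -0.10 to 0.16 over the samples left out. It turned for Dbp (-0.016, range -0.016 to 0.53) and Cry2 (-0.12, range -0.12 to 0.18) without KO_ASO replicate 1. None of these values was called. The r of Dbp and Nr1d1 turned to -0.28 without the 2 farthest samples, to -0.011 with library totals, and ran from -0.36 to 0.18 with a sample left out. The other 5 correlations kept their sign under every alternative run.

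The same replicate numbers recur in every group. Over all genes, the correlations of deviations between samples of the same number ran from -0.08 to 0.44, with 11 of 24 above 0.1, and 14 of 16 samples correlated best with samples of their own number. The labels do not say what a number marks, so the numbers were not taken as pairs. With a replicate block the calls became 2322 for KO_PBS against WT_PBS, 752 for KO_ASO against KO_PBS, 2 for WT_ASO against WT_PBS and 44 for KO_ASO against WT_ASO, and 0 clock genes were called in each.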

Other observations

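KO_ASO replicate 4, the library with the lowest correlation to its own group and the highest red blood cell markers, also held the lowest of the 16 values of Nr1d1 (31.9 CPM), Bhlhe40 (44.2 CPM, against 92.9 to 141 CPM in the other KO_ASO samples) and Bhlhe41 (20.1 CPM, against 42.1 to 52.4 CPM), and the highest of Nfil3 (67.8 CPM, against 22.1 to 28.9 CPM). Bhlhe40 and Bhlhe41 encode E-box repressors and Nfil3 a repressor at D-boxes. In the same sample Arntl (14.4 CPM) lay between the other KO_ASO values, and Per2 (29.8 CPM) was high while Dbp (35.9 CPM) was the lowest of its group, against the positive relation of this pair over the 16 samples (r 0.72). These genes were chosen after their values were seen, and the part of the red blood cell signal in them was not tested.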
